A study of Homo sapiens with 3 samples.

Results

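*NF1* and the 3 protein-coding genes that lie inside it, *EVI2A*, *EVI2B* and *OMG*, were followed in Caki-1 cells, a human renal cell carcinoma line, after RBCK1 (also called HOIL-1) was depleted. Cells had been transfected for 48 h with si-Control, a non-targeting siRNA, or with si-HOIL-1#1 or si-HOIL-1#2, different siRNAs against RBCK1. There was 1 library per condition and 3 in all, so no difference here has a replicate check, and no p-value was computed. The deposited table lists 44591 genes with 1 RPKM value per library, that is, reads scaled to the length of the gene and to the reads of the library, a unit the table does not name and its values show. The 4 genes were taken from it by symbol, and they had been chosen with their values in these libraries known, so their ratios are a description. Lower RNA per cell and a smaller share of cells that express a gene cannot be told apart in these bulk samples.

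Neurofibromin, the product of *NF1*, is a tumor suppressor that speeds the hydrolysis of GTP on RAS and so returns RAS to its inactive state. Loss of *NF1* causes neurofibromatosis type 1. A large intron of *NF1* holds 3 small genes that are read from the opposite strand. *EVI2A* and *EVI2B* were named after retroviral integration sites in mouse leukemia, and both encode membrane proteins. EVI2B, also known as CD361, is found on leukocytes. *OMG* encodes oligodendrocyte myelin glycoprotein, a surface protein that binds the Nogo receptor and restrains axon growth.

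In the table's coordinates (hg19 by the submitters' processing notes), *NF1* (NCBI Gene 4763) lies on the plus strand of chromosome 17 from 29421945 to 29704695. *OMG* (4974) lies on the minus strand from 29621668 to 29624380. *EVI2B* (2124) follows on the minus strand from 29630788 to 29641130, and *EVI2A* (2123) from 29643428 to 29648767. In the GENCODE v29 annotation, which uses GRCh38, the *NF1* transcript with the longest coding sequence has 58 exons and encodes 2839 amino acids. All 3 nested genes lie within its intron 36, of 60480 bases, on chromosome 17 from 31265340 to 31325819. The longest coding sequences of *EVI2A*, *EVI2B* and *OMG* there encode 259, 448 and 440 amino acids. Exons of other *NF1* transcripts in that annotation overlap the *EVI2A* gene by 152 bases and neither *EVI2B* nor *OMG*. The library kit is described as directional, but how strand was used in counting is not given in the sources used here.

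Upstream sequence was available in the reference tables for 2 of the 4 genes, *NF1* and *OMG*, and is shown for these. The 250 bases before each RefSeq start (GRCh38.p14) are given 5′ to 3′ on the gene's own strand. The starts in GENCODE v29 are different. There *OMG* spans 31272013 to 31297539, so the whole *OMG* stretch lies inside the gene. *NF1* begins there at 31094927, so the end of the *NF1* stretch lies inside *NF1*. Capitals mark a match to the cAMP response element TGACGTCA or to the AP-1 motif TGANTCA, searched on both strands.
NF1, chr17:31094727-31094976, plus strand: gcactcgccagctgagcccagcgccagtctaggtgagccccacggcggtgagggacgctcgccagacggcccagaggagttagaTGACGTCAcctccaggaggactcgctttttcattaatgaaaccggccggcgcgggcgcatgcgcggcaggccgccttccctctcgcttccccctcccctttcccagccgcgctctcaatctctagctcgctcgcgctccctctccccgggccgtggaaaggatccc
OMG, chr17:31297240-31297489, minus strand: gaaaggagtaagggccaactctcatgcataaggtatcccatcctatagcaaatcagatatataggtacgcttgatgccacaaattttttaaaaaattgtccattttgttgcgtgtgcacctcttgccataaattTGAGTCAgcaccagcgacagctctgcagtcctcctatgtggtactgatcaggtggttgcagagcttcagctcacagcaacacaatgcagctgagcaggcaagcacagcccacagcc

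The *NF1* stretch held 25 CG dinucleotides and was 67.2% G or C, and 78.4% of the 35116 upstream stretches in the table held fewer CG dinucleotides. The *OMG* stretch held 3 and was 46.8% G or C, and 22.9% held fewer. TGACGTCA begins 166 bases before the *NF1* start and was found in 1.65% of all stretches of this length. TGANTCA begins 116 bases before the *OMG* start and was found in 6.57%. The ETS motif CCGGAAG, which 8.52% of all stretches hold, was in neither. The same was true of the TATA box letters TATAAA, held by 10.7%. The 2 motifs do not overlap each other, and a match describes letters only.

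The siRNAs are shown with the part of the sense strand that pairs with guide bases 2 to 8, the seed, in capitals. Their sequences are those the authors' paper lists for siRBCK1 #1 and siRBCK1 #2. They were matched to si-HOIL-1#1 and si-HOIL-1#2 by number, a pairing that the sample labels do not state.
si-HOIL-1#1: ggtgcaccttcATCAACAa
si-HOIL-1#2: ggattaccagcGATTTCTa
In the coding sequence of the *NF1* transcript (ENST00000358273.8), ATCAACA occurs at 2 places, given here as the aligned 19 bases from 2884 to 2902 and from 8365 to 8383 of the transcript.
NF1, bases 2884 to 2902: tacaggaatggATCAACAt
NF1, bases 8365 to 8383: tggactctaagATCAACAc
Of the 19 bases, 8 and 10 are the same as in si-HOIL-1#1. GATTTCT was not found in the *NF1* transcript, of 12425 bases, and neither seed site was found in the *EVI2A*, *EVI2B* or *OMG* transcripts, of 1860, 1999 and 1947 bases. Among the longest protein-coding transcripts of 19669 genes, 22.3% held ATCAACA and 25.9% held GATTTCT. Whether a seed match bears on the level of *NF1* was not tested.

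*EVI2A* was the member with the largest difference. Its level was 6.61 RPKM in the si-Control library, 1.00 RPKM after si-HOIL-1#1 and 0.686 RPKM after si-HOIL-1#2, so both depleted libraries lay far below the control. The log2 ratios to si-Control on the log2(RPKM + 1) scale, which understates changes at low levels, were -1.93 and -2.18. The steps between low RPKM values gave whole reads, and the smallest numbers that the *EVI2A* values allow are 735, 122 and 75 reads in the same order. On reads, *EVI2A* was at 15.2% of si-Control with si-HOIL-1#1, a log2 ratio of -2.72 with a 95% interval of -3.01 to -2.44. With si-HOIL-1#2 it was at 10.4%, a log2 ratio of -3.27 with an interval of -3.63 to -2.93. These exact Clopper-Pearson intervals cover counting error only and not the spread between cultures. Between the depleted libraries, *EVI2A* was lower with si-HOIL-1#2 by a log2 ratio of -0.55 (interval -0.98 to -0.12).

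*NF1* itself differed less. Its level was 16.1 RPKM in the si-Control library, 10.6 RPKM after si-HOIL-1#1 and 11.9 RPKM after si-HOIL-1#2, from at least 1973, 1419 and 1432 reads. The log2 ratios were -0.56 and -0.41. On reads, *NF1* reached 65.7% of si-Control with si-HOIL-1#1, a log2 ratio of -0.61 with an interval of -0.71 to -0.51. It reached 73.7% with si-HOIL-1#2, a log2 ratio of -0.44 with an interval of -0.54 to -0.34. Both depleted libraries lay below the control by more than counting error, and si-HOIL-1#2 lay above si-HOIL-1#1 by a log2 ratio of 0.17 (interval 0.06 to 0.27).

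*EVI2B* was under 1 RPKM in every library. Its level was 0.950 RPKM with si-Control, 0.409 RPKM with si-HOIL-1#1 and 0.317 RPKM with si-HOIL-1#2, from at least 70, 33 and 23 reads. The order of the libraries was that of *EVI2A*. The log2 ratios on the log2(RPKM + 1) scale were -0.47 and -0.57. Without the added 1 RPKM, reads gave 43.0% of si-Control with si-HOIL-1#1 (log2 ratio -1.22, interval -1.86 to -0.60) and 33.4% with si-HOIL-1#2 (-1.58, interval -2.33 to -0.89). The depleted libraries differed from each other by a log2 ratio of -0.37, with an interval of -1.20 to 0.45 that holds 0.

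*OMG* was close to the limit of detection. Its level was 0.10 RPKM in the si-Control library, 0.104 RPKM after si-HOIL-1#1 and 0.232 RPKM after si-HOIL-1#2, which can come from as few as 7, 8 and 16 reads. The log2 ratios on the log2(RPKM + 1) scale were 0.01 and 0.16. On reads, the intervals ran from -1.60 to 1.76 with si-HOIL-1#1 and from -0.15 to 2.74 with si-HOIL-1#2. No difference of *OMG* from si-Control was detectable at this depth.

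The order of levels was *NF1*, *EVI2A*, *EVI2B*, *OMG* in all 3 libraries. With si-Control, neighbours in that order differed beyond counting error, with exact intervals of 15.4 to 16.8 RPKM for *NF1*, 6.14 to 7.11 for *EVI2A*, 0.741 to 1.20 for *EVI2B* and 0.0402 to 0.206 for *OMG*. With si-HOIL-1#2, *EVI2B* (0.201 to 0.476 RPKM) and *OMG* (0.133 to 0.377 RPKM) could not be told apart. *EVI2A* stood at 41.0% of the *NF1* level with si-Control, 9.47% with si-HOIL-1#1 and 5.77% with si-HOIL-1#2. The ratio of *EVI2A* to *NF1* reads was therefore lower than with si-Control by a log2 ratio of -2.12 (conditional exact interval -2.42 to -1.82) and -2.83 (-3.21 to -2.47). For *EVI2B* against *NF1*, the same quantity was -0.61 (-1.26 to 0.02) and -1.14 (-1.90 to -0.44). For *OMG* against *NF1* it was of the other sign, 0.67 (-0.99 to 2.37) and 1.66 (0.29 to 3.18), on 7 to 16 *OMG* reads. The ratio of *EVI2B* to *EVI2A* was higher than with si-Control in both, by log2 ratios of 1.51 (0.80 to 2.19) and 1.69 (0.85 to 2.48), on 23 to 70 *EVI2B* reads. The counted reads of these neighbouring nested genes thus differed unequally. Any intronic *NF1* signal among those reads was not measured.

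**Figure D1:**
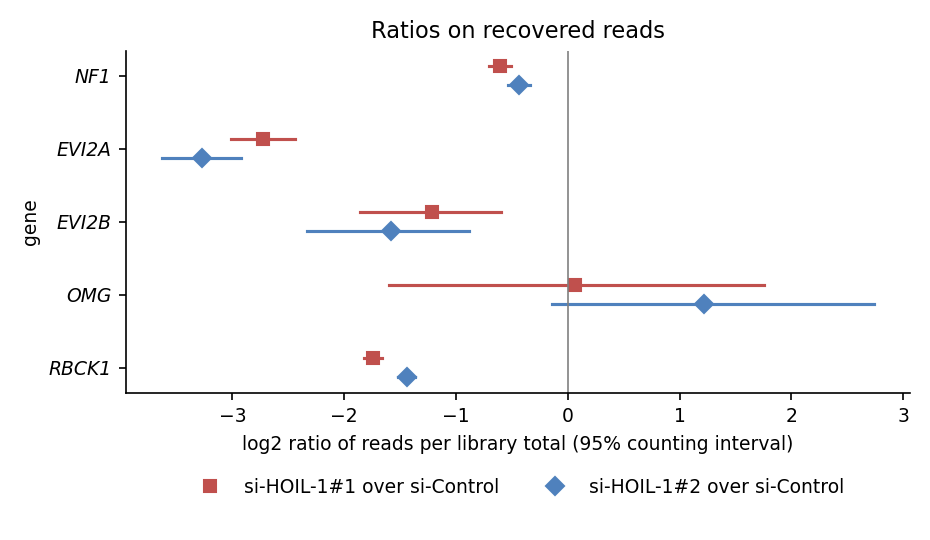
Log2 ratio of reads per library total to si-Control for the 4 genes and for *RBCK1*, with squares for si-HOIL-1#1, diamonds for si-HOIL-1#2 and bars for 95% counting intervals. The *EVI2A* intervals lie between -3.63 and -2.44, below those of the other genes plotted, and both *OMG* intervals hold 0.

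Counted at a limit of 2-fold on the log2(RPKM + 1) scale, 1 of the 4 genes, *EVI2A*, was lower with si-HOIL-1#1 and the same 1 with si-HOIL-1#2. Of the 12403 genes whose mean over the libraries reached 1 RPKM, 3.27% were at least 2-fold lower and 2.91% at least 2-fold higher with si-HOIL-1#1. With si-HOIL-1#2, 2.27% were lower and 2.5% higher, and 1.41% were lower with both. None of the 4 genes was 2-fold higher on this scale. *NF1* and *EVI2A* passed this mean of 1 RPKM, and *EVI2B* and *OMG* did not. The median log2 ratio over all these genes was 0.02 with si-HOIL-1#1 and 0.03 with si-HOIL-1#2. For *EVI2A*, 27 of the genes had a lower log2 ratio with si-HOIL-1#1 and 8 with si-HOIL-1#2. In both libraries it was 4 genes, *H1F0*, *IL6*, *KCNH1* and *SNORD98*, named here after their values were seen. For *NF1*, 12.4% and 16.1% of the genes had a lower log2 ratio. The targeted gene, *RBCK1*, stood at 33.3 RPKM in the si-Control library and at 9.97 and 12.3 RPKM after si-HOIL-1#1 and si-HOIL-1#2.

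By the distance between pairs of log2 ratios over these 3 libraries, the protein-coding genes with the pattern most like *NF1* were *MAP1B* (-0.57 and -0.41), *DALRD3* (-0.56 and -0.41) and *TMEM263* (-0.56 and -0.42). Of the 10773 genes compared, 44 lay within a distance of 0.05 of *NF1*.

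The table has 4 entries inside *NF1*, the 3 nested genes and a sense intronic transcript that begins 38.3 kb into the gene (ENSG00000266371.1). The latter was at 0.0487, 0.133 and 0.0396 RPKM with si-Control, si-HOIL-1#1 and si-HOIL-1#2. Intronic signal of *NF1* at *EVI2A* was not measured. An antisense transcript that overlaps the first 524 bases of *NF1* (ENSG00000264107.1) was at 1.54, 0.955 and 0.615 RPKM, from at least 28, 19 and 11 reads, with log2 ratios of -0.38 and -0.65. Of the *NF1* pseudogenes, 5 are listed in the table. They summed to at most 0.101 RPKM in any library, against 10.6 RPKM or more for *NF1*.

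Of the 22 other protein-coding genes within 1000 kb of *NF1*, 16 averaged 1 RPKM or more. Their median log2 ratios were 0.06 and -0.10, and 0 of them differed 2-fold with either siRNA, beside 6.18% and 4.76% of all genes in either direction. The nearest before *NF1* were *ADAP2* (0.07 and -0.10) and *RNF135*, a ubiquitin ligase gene (0.34 and 0.38). The nearest after it were *RAB11FIP4*, at 0.0152 RPKM or less in every library, and *COPRS* (0.57 and 0.19). Only *RHOT1*, which encodes a GTPase of the mitochondrial outer membrane, was lower than *NF1* in both comparisons (-0.63 and -0.63). In a part of patients with neurofibromatosis, *NF1* is lost together with flanking genes, and 10 of the 13 such genes found in the table passed the mean of 1 RPKM. The 10 include a microRNA gene, *MIR193A* (0.48 and 0.41), which rests on as few as 3, 6 and 5 reads. With si-HOIL-1#1, 1 of these 10 was lower, beside 48.4% of all genes, and the median log2 ratio was 0.26, which became 0.07 without the filter or among genes that averaged 5 RPKM or more. With si-HOIL-1#2, 5 were lower, beside 46.4%, and the median was 0.05, which became 0 without the filter and -0.10 among genes that averaged 5 RPKM or more. *SUZ12*, a subunit of the Polycomb repressive complex, was at 21.3, 22.0 and 19.6 RPKM (0.05 and -0.11). *ATAD5*, which unloads the replication clamp PCNA from DNA, was higher (0.54 and 0.61).

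**Figure D2:**
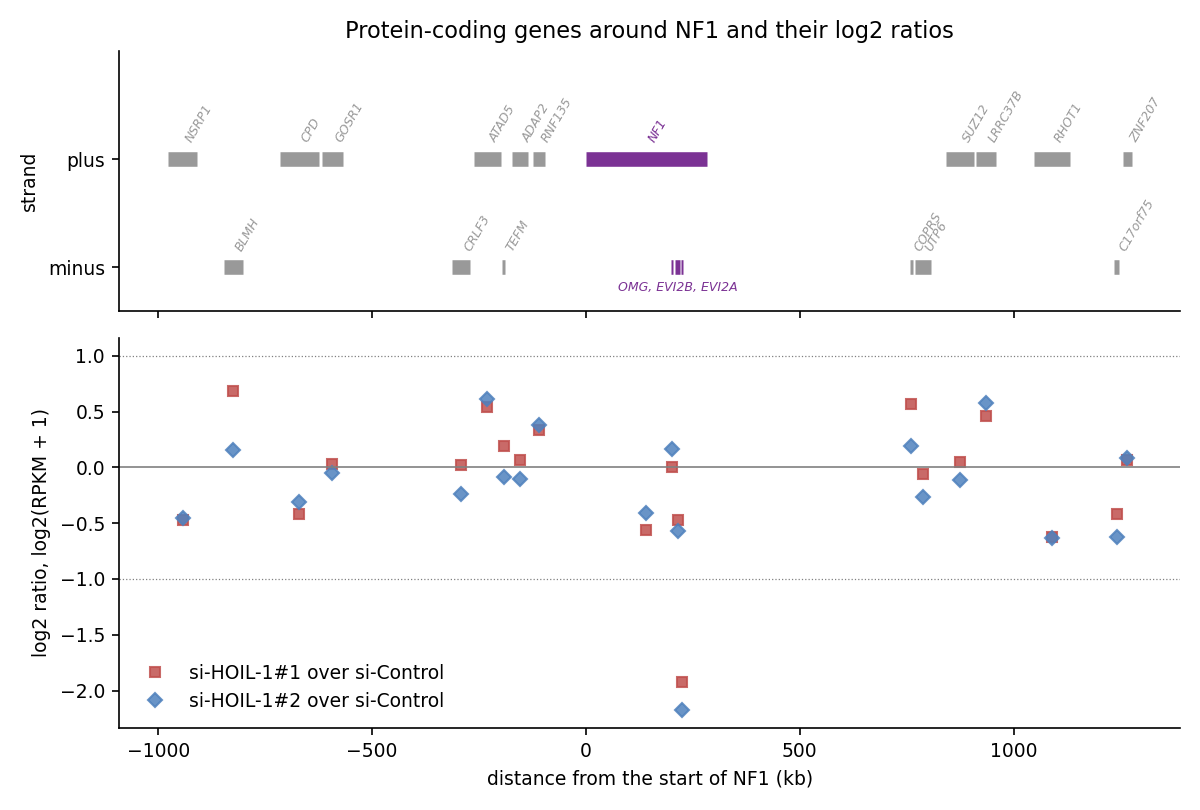
Upper panel, protein-coding genes within 1000 kb of *NF1* by distance from its start in kb and by strand (the 4 genes in purple, others of at least 1 RPKM on average in gray). Lower panel, log2 ratio to si-Control of each gene at its midpoint, with squares for si-HOIL-1#1 and diamonds for si-HOIL-1#2. *EVI2A* is the only gene shown beyond the dotted 2-fold lines, and the gray genes lie between -0.63 and 0.69.

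Among all protein-coding genes of the table, 278 lie wholly within another one on the opposite strand, and 80 of them (28.8%) averaged 1 RPKM or more. In 50 pairs both nested gene and host did. The log2 ratio of the nested gene minus that of its host had a median of 0.18 with si-HOIL-1#1 and 0.15 with si-HOIL-1#2. For *EVI2A* and *NF1* it was -1.36 and -1.77, a description, since *EVI2A* was chosen with its ratios known and passed the mean of 1 RPKM through si-Control. In these pairs *EVI2A* was the 1 nested gene at least 2-fold lower with either siRNA. With hosts of any level, 3 of the 80 nested genes (3.75%) were at least 2-fold lower with si-HOIL-1#1 and 2 of 80 (2.5%) with si-HOIL-1#2, near the 3.27% and 2.27% of all genes. These were *EVI2A*, *PTX3* inside *VEPH1* (-1.70 and -1.84) and, with si-HOIL-1#1, *ACKR4* inside *ACAD11* (-1.21), named after their values were seen.

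The other GTPase activating proteins for RAS, which act on RAS as neurofibromin does, were next examined. Of 10 listed with *NF1*, 6 averaged 1 RPKM or more. All 6 had a log2 ratio below 0 with si-HOIL-1#1 and 5 of 6 with si-HOIL-1#2, beside 48.4% and 46.4% of all genes. In both it was 5 of 6, beside 38.2% of all genes, and the comparisons share the control. These counts include *NF1*, which was chosen with its values known. Without it, 5 of 5 were lower with si-HOIL-1#1 and 4 of 5 with si-HOIL-1#2. The median log2 ratios were -0.50 and -0.38 (-0.45 and -0.35 without *NF1*), and 0 of the 6 were 2-fold lower, beside 3.27% and 2.27% of all genes. *RASA1*, which encodes p120 RasGAP, was at 25.4, 13.4 and 14.4 RPKM with si-Control, si-HOIL-1#1 and si-HOIL-1#2 (log2 ratios -0.88 and -0.78). *RASAL2* was at 11.17, 6.88 and 7.66 RPKM (-0.63 and -0.49), and *RASA2* was at 5.73, 3.94 and 4.29 RPKM (-0.45 and -0.35). *RASA3* had log2 ratios of -0.20 and -0.23. With each siRNA, *RASA1* and *RASAL2* had lower log2 ratios than *NF1*, and *RASA2* and *RASA3* had higher ones.

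The SPRED proteins bring neurofibromin to the membrane. *SPRED1* (0.02 and -0.16), *SPRED2* (0.20 and 0.04) and *SPRED3* (0.04 and -0.06) had medians of 0.04 and -0.06. Of the 6 RAS GTPases, the substrates of this group, 4 were lower with each siRNA, beside 48.4% and 46.4% of all genes, with medians of -0.23 and -0.19. *RRAS2* was at 159, 88.6 and 90.0 RPKM (-0.84 and -0.82), and *HRAS* was at 19.9, 38.0 and 33.6 RPKM (0.90 and 0.73).

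The exchange factors and adaptors that load RAS with GTP had medians of -0.12 and -0.06 over the 6 of 12 that passed. *SOS1* (-0.22 and -0.36) and *SOS2* (-0.58 and -0.45) were lower, and the adaptor gene *SHC1* was at 92.1, 186 and 151 RPKM (1.00 and 0.70). Keeping only genes that averaged 5 RPKM or more turned these medians to 0.04 and 0.06. Of the kinases and scaffolds below RAS, 11 of 12 passed, with medians of 0.18 and 0.17. With each siRNA, 4 of these 11 were lower, beside 48.4% and 46.4% of all genes. *SHOC2*, part of a phosphatase complex that activates RAF, was lower (-0.39 and -0.80). *LZTR1*, which directs RAS proteins to degradation, was higher (0.63 and 0.62), as was *PEBP1*, which encodes an inhibitor of RAF (0.61 and 0.55). These are transcript levels and say nothing of RAS activity.

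**Figure D3:**
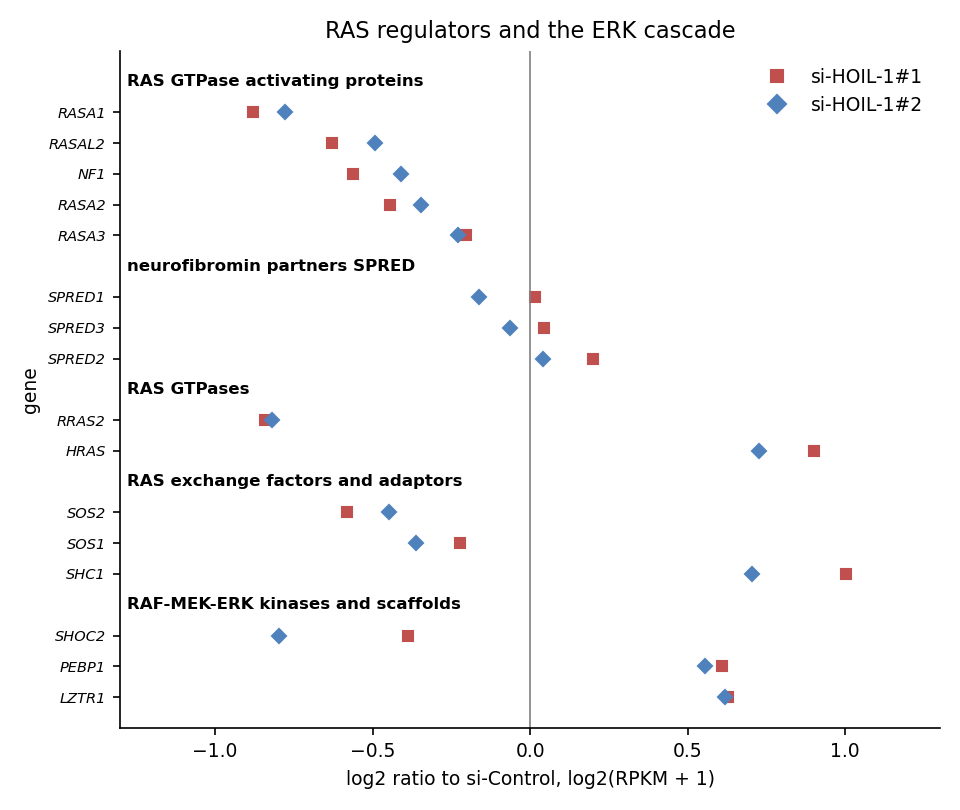
Log2 ratio to si-Control on the log2(RPKM + 1) scale for the genes of RAS signaling named in the text, grouped by role, with squares for si-HOIL-1#1 and diamonds for si-HOIL-1#2. The 5 GTPase activating proteins shown, *NF1* among them, lie between -0.88 and -0.20, while *SHOC2* lies below 0 and *LZTR1* and *PEBP1* above it.

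The nested genes are known from other cell types, so markers of those cells were examined. Of 10 leukocyte markers, *EVI2B* among them, 2 averaged 1 RPKM or more, *LCP1* (3.68, 1.66 and 2.27 RPKM) and *CD37* (0.500, 1.37 and 1.59 RPKM). *PTPRC*, which defines leukocytes as CD45, was at 0 with si-Control and at 0.0167 and 0.0223 RPKM in the depleted libraries, and *CD53* was at 0.167 RPKM or less. Summed over the 10 genes, the markers were at 5.50, 4.09 and 4.77 RPKM, and without *EVI2B* at 4.55, 3.68 and 4.45 RPKM. Of 9 oligodendrocyte markers, *OMG* among them, *MBP*, which encodes myelin basic protein and has longer transcripts outside myelin, was at 7.07, 3.71 and 3.22 RPKM (log2 ratios -0.78 and -0.94). The other 8 were each at 0.232 RPKM or less in every library, and *OLIG2* was at 0 in all 3. Of the Nogo receptors and their partners listed with *OMG*, 1 of 8 passed, *RTN4*, which encodes Nogo itself (0.07 and -0.23). Among markers of renal epithelium and renal carcinoma, *PAX8*, a renal lineage factor, was at 124, 82.5 and 107 RPKM and *VIM* at 664, 1512 and 1392 RPKM. *CA9*, a marker of clear cell carcinoma, was at 0.0636 RPKM or less, and *PAX2* was at 0.0642 RPKM or less. Of the 10 renal markers, 5 passed, with median log2 ratios of 0.57 and 0.84, and the medians over all 10 were 0.16 and 0.17.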

How the data were processed

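Total RNA of Caki-1 cells was depleted of ribosomal RNA and sequenced in pairs by the submitters, with 1 library per condition. The submitters' processing notes name FastQC, Trimmomatic, TopHat2, HTSeq and the build hg19, without settings or annotation. The authors deposited 1 value per library for 44591 genes with no unit named, and these were read as RPKM because low values step with gene length and library total. Their other columns hold their own comparison (group values, fold change, p and q) and were not used. The value of 1 read in short RNAs of up to 200 nt gave library totals of 36926834 (si-Control), 40442939 (si-HOIL-1#1) and 36344428 reads (si-HOIL-1#2). With these, the smallest whole reads within 0.002 were found for 12388 of 12403 genes (99.9%), at gene lengths of up to 50000 nt. True reads may be a whole multiple, so the intervals are the widest that fit.

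Log2 ratios used a pseudocount of 1 RPKM, and counts over genes used a mean of at least 1 RPKM. The entry that is not a number (1 gene) was left out. Alternatives were pseudocounts of 0.1 and 5 RPKM, equal medians or totals, no filter or 5 RPKM, limits of 1.5-fold and 4-fold, and, added after seeing the data, reads without a pseudocount and nested genes with hosts of any level. Members and lists were chosen with earlier results of these data known. The text names the 4 genes, *RBCK1*, members of the lists, entries in or next to *NF1* and the 3 genes most like it. Genes below *EVI2A*, other nested genes, *RHOT1*, and list genes under 1 RPKM were named after their values were seen. Some genes of the lists enter the counts and medians and are not reported here. Steps were tested on simulated data. Values were computed in Python 3.11.15 with scipy 1.17.1, pandas 2.3.3 and numpy 2.4.6, and plots were drawn with matplotlib 3.10.9.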

Additional observations from a re-analysis of the deposited data

How the results depend on the processing

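*EVI2A*, *NF1* and *EVI2B* were lower than si-Control with both siRNAs under equal medians and equal totals, the alternatives that could turn their sign. The choice of pseudocount cannot turn a sign, and the filters and fold limits leave these ratios as they are. A pseudocount of 0.1 RPKM gave *EVI2A* log2 ratios of -2.61 and -3.10 and *EVI2B* a ratio of -1.33 with si-HOIL-1#2, and reads alone gave -2.72 and -3.27 for *EVI2A* and -1.22 and -1.58 for *EVI2B*. A pseudocount of 5 RPKM, which is near these levels, gave -0.95 and -1.03 for *EVI2A* and -0.44 for *NF1* with si-HOIL-1#1. The number of the 4 genes past 2-fold with si-HOIL-1#1 was thus 2 at 0.1 RPKM and on reads, and 0 at a pseudocount of 5 RPKM or at 4-fold. With si-HOIL-1#2 it was 2 at 0.1 RPKM and 3 on reads (*OMG* included, whose interval holds 0). Among genes that averaged at least 5 RPKM the number was 0 with each siRNA. That filter leaves only *NF1* of the 4 and removes *EVI2A*, whose mean was 2.77 RPKM, so this 0 does not bear on *EVI2A*.

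Over all genes, 361 were 2-fold higher and 405 lower with si-HOIL-1#1, and 310 higher and 281 lower with si-HOIL-1#2. In that order, these became 616, 730, 563 and 522 at 0.1 RPKM, 114, 105, 101 and 97 at 5 RPKM, 1499, 1435, 1400 and 1156 at 1.5-fold and 24, 23, 17 and 14 at 4-fold. Among genes of at least 5 RPKM, 237 and 218 passed with si-HOIL-1#1 and 174 were lower with si-HOIL-1#2. Setting equal medians gave 350, 415, 270 and 318 and equal totals 310, 477, 286 and 303, so that lower genes outnumbered higher ones with si-HOIL-1#2 too. Of 94 list medians recomputed, 4 turned sign and 1 became 0, none of them under another scaling, and scaling moved the median of all genes by less than 0.1. With hosts of any level, the nested genes 2-fold lower numbered 3 and 2 in place of 1 and 1. No paired analysis was possible because si-Control and each siRNA had 1 library, which also left no replicate to omit. *EVI2B* and *OMG* rest on few reads.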

Other observations

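*SUZ12*, which flanks *NF1*, belongs to a complex whose other subunits were also recorded. Of 8 Polycomb repressive complex 2 genes, all averaging 1 RPKM or more, 2 were lower with si-HOIL-1#1 and 5 with si-HOIL-1#2. Of all genes, 48.4% and 46.4% were lower. The median log2 ratios of the 8 were 0.08 and -0.04. *EZH2*, the main methyltransferase of the complex, was at 10.3, 17.95 and 18.5 RPKM with si-Control, si-HOIL-1#1 and si-HOIL-1#2 (log2 ratios 0.74 and 0.79), and its partner *EED* was at 8.19, 13.2 and 12.4 RPKM (0.62 and 0.54). The accessory subunit gene *AEBP2* was at 12.0, 8.41 and 7.87 RPKM (-0.47 and -0.55). None of the 8 differed 2-fold on the log2(RPKM + 1) scale, beside 6.18% and 4.76% of all genes.

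*RASAL1*, a GTPase activating protein gene for RAS with a mean under 1 RPKM, was at 1.25, 0.136 and 0.193 RPKM, from at least 185, 22 and 28 reads. The counting intervals of its log2 ratio on reads were -3.91 to -2.56 and -3.33 to -2.12, the same direction as *NF1* and *EVI2A*. It was singled out after its values were seen.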
